A study of Homo sapiens with 6 samples.

Results

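The genes of human chromosome 9 were examined by arm and by position in A549 cells, a lung adenocarcinoma cell line, that overexpressed the long non-coding RNA LOC401312. Chromosome 9 had 1581 of the 38170 annotated entries of the count table. The 495 genes examined were those with a mean of at least 250 counts over the 6 libraries, with COL5A1 and TNC left out by the rule, out of 11938 genes at that level in the whole table. This chromosome was singled out because its genes were already known to be slightly lower on average in these data, so its medians and counts are descriptions and carry no test. Just outside the count minimum were RPSAP9 with a mean of 240 counts and DNLZ with 228.667, and just inside were AL353763 with 251.667 and ZNF782 with 257.333. The log2 changes of those 4 genes were -0.06, 0.05, -0.01 and 0.00.

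Total RNA was sequenced from 3 libraries of A549 cells carrying an empty vector and from 3 libraries overexpressing LOC401312. The piggyBac system, which inserts DNA into the genome by transposition, was used for LOC401312, and all cells were grown in the same serum-supplemented medium. The labels do not say whether the lines were clones or pools or whether each library had its own culture, and the p-values therefore rest on a library-to-library spread that could be technical alone. In the genotype field, replicates 2 and 3 of the LOC401312 group carry the names LOC401313 and LOC401314, and grouping followed the titles. Library totals ran from 60971105 to 73994619 counts. The STEAP1B entry, which holds the LOC401312 transcript, had 9, 11 and 23 counts with vector and 94628, 92527 and 90297 counts in the LOC401312 libraries, replicates 2 and 3 included.

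A list of 8 genes used as markers of A549 cells (KRT8, KRT18, KRT7, EPCAM, CDH1, VIM, AKR1B10 and AKR1C1) summed to 13432 to 14559 CPM (counts scaled to a common library size) with vector and 13260 to 13860 CPM with LOC401312, and all 8 had counts in both groups. By edgeR CDH1 rose (log2 change 0.48, adjusted p = 0.000131) and AKR1B10 (-0.45, adjusted p = 5.87e-05) and AKR1C1 (-0.53, adjusted p = 8.69e-05) fell, while the other 5, among them the keratins, did not pass. EPCAM was low, at 2.25 CPM with vector and 2.5 CPM with LOC401312. Markers of other cells were low but uneven. The 3 placental markers summed to 0.553 to 1.14 CPM with vector and to 1.03, 66.1 and 65.1 CPM in LOC401312 replicates 1, 2 and 3. The 6 urothelial or squamous markers summed to 7.51 to 8.54 CPM with vector and 0.959 to 1.39 CPM with LOC401312, with 1 of them at 0 in the latter. Within this list mean CPM with vector and LOC401312 were 4.48 and 0.0236 for KRT13 and 1.29 and 0.0496 for ADIRF. KRT4 (0.672 and 0.583) and UPK2 (0.537 and 0.476) changed little, and KRT5 did not pass. The 2 fibroblast markers summed to 22.5 to 26.1 CPM with vector and 12.9 to 14.1 CPM with LOC401312. That difference lay in COL1A1 (means of 23.4 and 12.1 CPM), while DCN did not change (1.41 and 1.39 CPM). The 2 haematopoietic markers reached 4.19 CPM in vector replicate 1 and at most 0.117 CPM in the other libraries, and 1 of them was at 0 in every LOC401312 library. The 2 endothelial markers stayed between 0.893 and 1.56 CPM. The part of these differences in the results on chromosome 9 was not tested. In bulk RNA, a lower level in every cell and fewer cells with the gene cannot be told apart.

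Chromosome 9 has a short arm, 9p, and a long arm, 9q, separated by a centromere with large blocks of duplicated sequence beside it. The short arm carries the 9p21 tumour suppressor locus with CDKN2A and CDKN2B, which A549 cells are known to lack by deletion. The long arm carries genes of many pathways, among them ASS1 of the urea cycle, HSPA5 of the endoplasmic reticulum and the ribosomal proteins RPL35, RPL12 and RPL7A. In cancer lines, genes of a stretch of chromosome can differ together between cultures, as one block, or singly. DNA copy number was not analysed here.

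Promoter sequences are shown for 4 genes that stood apart from the rest of the chromosome in the expression data described further on, since they are the clearest examples in both directions. They are the 2 genes below and the 2 above the chromosome's shift with the smallest p-values among those with a promoter entry and no overlapping entry. An overlapping entry was counted only if its mean count was at least 5% of the gene's own. The 4 genes were chosen after their values were seen. Each is the RefSeq promoter window (GRCh38.p14) of 300 bases on the strand of the gene. It runs from 250 bases before the RefSeq start to 50 after it. For DAPK1 and ACO1 the RefSeq start lies inside the deposited span of the gene given further on. The DAPK1 window therefore lies wholly within that span. Capitals mark the GC box GGGCGG or its reverse complement CCGCCC. MEGF9 is at chr9:120714421-120714720 on the minus strand and DAPK1 at chr9:87497617-87497916 on the plus strand. MOB3B is at chr9:27529765-27530064 on the minus strand and ACO1 at chr9:32384393-32384692 on the plus strand.
MEGF9: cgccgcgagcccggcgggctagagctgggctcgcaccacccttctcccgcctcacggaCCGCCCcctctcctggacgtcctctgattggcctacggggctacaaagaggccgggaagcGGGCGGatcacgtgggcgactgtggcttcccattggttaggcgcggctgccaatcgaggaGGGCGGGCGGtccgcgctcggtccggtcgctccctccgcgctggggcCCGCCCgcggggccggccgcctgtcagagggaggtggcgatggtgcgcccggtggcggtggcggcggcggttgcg
DAPK1: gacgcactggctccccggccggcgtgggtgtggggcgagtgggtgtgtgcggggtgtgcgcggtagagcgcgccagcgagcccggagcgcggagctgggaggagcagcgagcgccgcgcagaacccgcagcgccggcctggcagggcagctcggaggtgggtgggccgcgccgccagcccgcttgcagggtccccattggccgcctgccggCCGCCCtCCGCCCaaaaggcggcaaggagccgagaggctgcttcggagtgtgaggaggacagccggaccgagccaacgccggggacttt
MOB3B: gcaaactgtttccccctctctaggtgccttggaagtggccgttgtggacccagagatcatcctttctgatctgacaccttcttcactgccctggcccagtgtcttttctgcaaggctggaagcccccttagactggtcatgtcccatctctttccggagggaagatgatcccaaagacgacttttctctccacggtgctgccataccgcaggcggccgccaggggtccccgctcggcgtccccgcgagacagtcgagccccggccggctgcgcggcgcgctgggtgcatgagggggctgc
ACO1: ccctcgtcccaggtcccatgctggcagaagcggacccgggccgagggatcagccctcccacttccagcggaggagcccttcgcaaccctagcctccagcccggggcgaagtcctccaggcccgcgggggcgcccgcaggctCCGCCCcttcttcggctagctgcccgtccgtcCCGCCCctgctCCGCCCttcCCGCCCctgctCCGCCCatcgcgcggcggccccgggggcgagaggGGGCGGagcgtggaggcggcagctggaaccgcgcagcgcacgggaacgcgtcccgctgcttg
The MEGF9 window held 5 GC boxes and 41 CpG dinucleotides, and the DAPK1 window 2 and 37. The ACO1 window held 6 GC boxes and 36 CpG, and the MOB3B window no GC box and 19 CpG.

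Genes of chromosome 9 were slightly lower in the LOC401312 libraries, and the small difference was spread over most of its length. The median log2 change of the 495 genes (LOC401312 over vector, with library sizes adjusted by TMM, a scaling on the bulk of the genes) was -0.087, or 0.942-fold, with quartiles of -0.17 and 0.0072. Of the 495, 362 genes (73.1%) had a negative log2 change. Each library's median over these genes, on log2 CPM centred per gene, was 0.033, 0.055 and 0.044 with vector and -0.037, -0.044 and -0.052 with LOC401312. All 3 vector medians lay above all 3 LOC401312 medians. On the authors' deposited FPKM (a count scaled for gene length and library total, with 0.1 added before the log2) the chromosome's median was 0.039, but there the other chromosomes except 2 and 12 had a median of 0.13, against 0.0037 on counts. Relative to those 20 chromosomes the median was -0.090 on counts and -0.088 on FPKM, and directions below are given on TMM-scaled counts. The shift was thus smaller than most single genes could show, since the median standard error (SE) of a gene was 0.066 on the same scale.

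By edgeR's quasi-likelihood test with Benjamini-Hochberg adjustment over all 19620 tested entries and a threshold of 0.05, 68 of the 495 genes fell, 10 rose and 417 did not pass. The percentages were 13.7 falling and 2.02 rising. Over all entries tested, 4.58% fell and 4.13% rose, and among genes with a mean of at least 250 counts outside chromosomes 2, 9 and 12, 4.13% fell and 5.44% rose. Because the chromosome was chosen on this same comparison, nothing is read from the excess. The groups did not overlap in 169 genes that were lower and 32 that were higher with LOC401312, beside 13.7% lower and 16.2% higher without overlap among genes at that count level outside chromosomes 2, 9 and 12. The median log2 change of the genes that fell was -0.28 and that of the genes that rose was 0.25. Only 4 genes had a log2 change of 1 or more in size, and 271 lay within 0.1 of the chromosome's median. Leaving out each library in turn, 27 of the 68 and 4 of the 10 were called every time. Without LOC401312 replicates 2 and 3, whose genotype labels differ, the median was -0.081, edgeR called 4 genes lower (MEGF9, CEMIP2, DAPK1 and AL157935) and 0 higher, and at an unadjusted p under 0.05 there were 83 and 11.

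**Figure D1:**
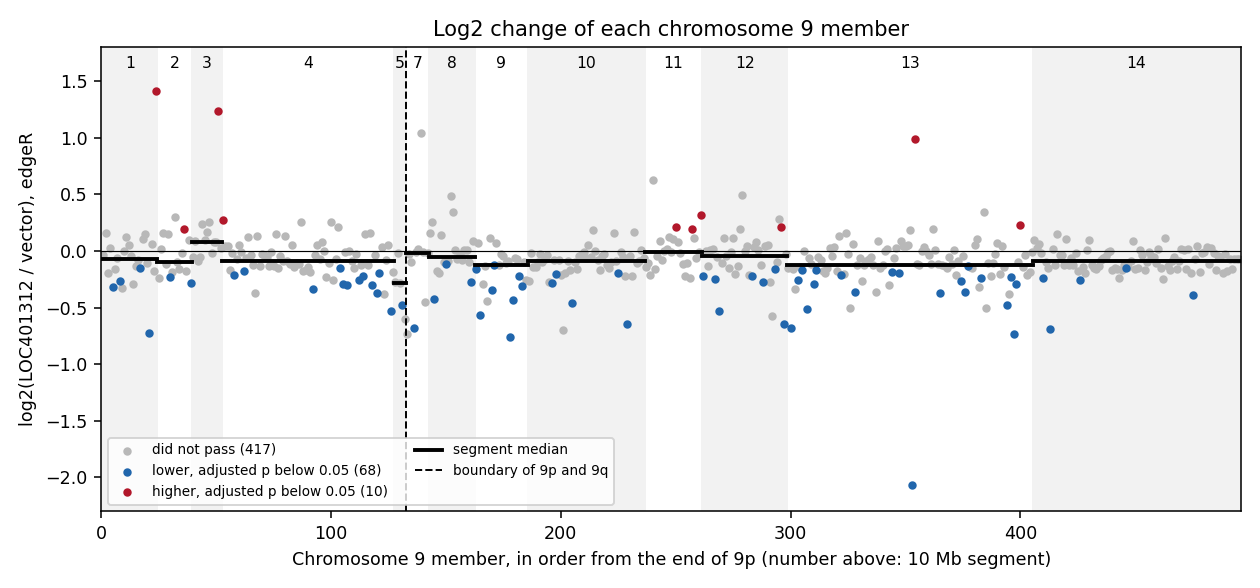
Log2 change (LOC401312 over vector) of each of the 495 genes of chromosome 9, in order from the end of 9p, with genes that passed the test coloured by direction, the median of each 10 Mb segment as a line and the boundary of the arms dashed. Segments are numbered from the end of 9p, 1 for 0 to 10 Mb and 14 for the last. On these TMM-scaled counts segment medians lie below 0 for 12 of 13 segments, and the segment from 20 to 30 Mb (number 3) lies above 0. On deposited FPKM, where the other chromosomes shifted up, 1 segment lies below 0.

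Among the 23 chromosomes the median of chromosome 9 was the second lowest. Chromosome 2 had a median of -0.23, chromosome 22, the next after chromosome 9, had -0.011, and chromosome 12, at the other end, had 0.12. The other 20 chromosomes together had a median log2 change of 0.0037. The shift of chromosome 9 thus lay outside the range of those 20 medians and was smaller than the shifts of chromosomes 2 and 12.

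**Figure D2:**
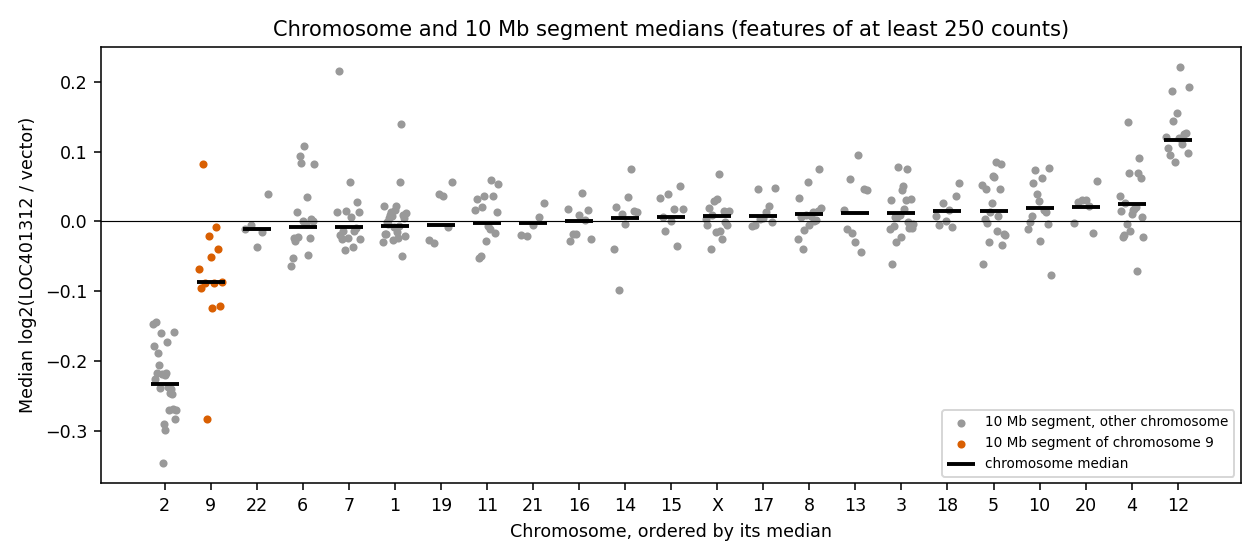
Median log2 change (LOC401312 over vector) of genes with a mean of at least 250 counts, by chromosome (lines) and by 10 Mb segment (points). On TMM-scaled counts chromosome 9 (-0.087) is second lowest after chromosome 2 (-0.23), and chromosome 12 (0.12) is highest.

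Both arms were lower, 9q slightly more than 9p. The 132 genes of 9p had a median log2 change of -0.073, and 90 (68.2%) were negative. The 363 genes of 9q had a median of -0.091, and 272 (74.9%) were negative. On 9p the library medians were 0.019, 0.044 and 0.037 with vector and -0.039, -0.029 and -0.034 with LOC401312. On 9q they were 0.038, 0.059 and 0.046 with vector and -0.036, -0.051 and -0.056 with LOC401312. Neither arm had overlapping groups. On 9p, 19 genes fell and 4 rose. On 9q, 49 fell and 6 rose, so that 14.4% of 9p genes and 13.5% of 9q genes fell. The medians of the arms differed by 0.018, and the 9p median less the 9q median in single libraries was -0.020, -0.014 and -0.0086 with vector and -0.0036, 0.022 and 0.023 with LOC401312, so that the groups did not overlap in this difference either. With the 13 genes from 20 to 30 Mb left out, a choice made after the data were seen, the 9p median was -0.088 over 119 genes and differed from that of 9q by 0.0030.

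The chromosome was then cut into segments of 10 Mb by gene start, of which 13 held genes. Segment medians were negative in 12 of 13 on counts and in 1 of 13 on FPKM, and 12 lay below the median of the 20 other chromosomes on either scale. Apart from the segment next to the centromere described below, they were lowest from 80 to 90 Mb, where 20 of 23 genes were negative with a median of -0.12, and from 120 to 130 Mb, where 79 of 107 were negative with a median of -0.12. From 90 to 100 Mb the median was -0.088 with 45 of 51 negative, from 30 to 40 Mb it was -0.087 with 56 of 75 negative, and from 130 Mb to the end of 9q it was -0.086 with 71 of 90 negative. Near the tip of 9p, from 0 to 10 Mb, 16 of 24 genes were negative with a median of -0.068, and from 10 to 20 Mb 9 of 15 with a median of -0.095. Medians were thus negative near both ends of the chromosome and in the middle of both arms, and no single block held the shift. In pieces of 5 Mb, however, library medians of the groups overlapped at both ends. These were 0 to 5 Mb (13 genes, median -0.046) and 135 Mb on (53 genes, median -0.086).

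Some segments showed little of it. From 100 to 110 Mb the median was -0.0080, with 15 of 25 genes negative, and library medians of 0.036, -0.011 and 0.014 with vector overlapped those of -0.051, 0.0059 and -0.0072 with LOC401312. There edgeR called 0 genes lower and 3 higher, against 5 and 5 at an unadjusted p under 0.05 and 2 and 3 by DESeq2. The median there turned positive in 4 of 17 other settings of the count analysis, 1 of them without LOC401312 replicate 1 (0.0096). From 60 to 70 Mb (10 genes, median -0.020), from 70 to 80 Mb (20 genes, median -0.051) and from 10 to 20 Mb the library medians also overlapped. From 110 to 120 Mb the median was -0.040 over 37 genes, without overlap. From 130 Mb on, the groups nearly met, with -0.017 in vector replicate 1 and -0.018 in LOC401312 replicate 1.

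The segment from 40 to 50 Mb had the lowest median, -0.28, but held only 5 genes, FRG1HP, AL353763, CBWD6, CNTNAP3B and BX088651. It lies beside the centromere, in duplicated sequence where reads of near-identical copies may be split between entries, and only CNTNAP3B passed the test. With all genes between 38 and 68 Mb left out, the 9p median was -0.055.

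**Figure D3:**
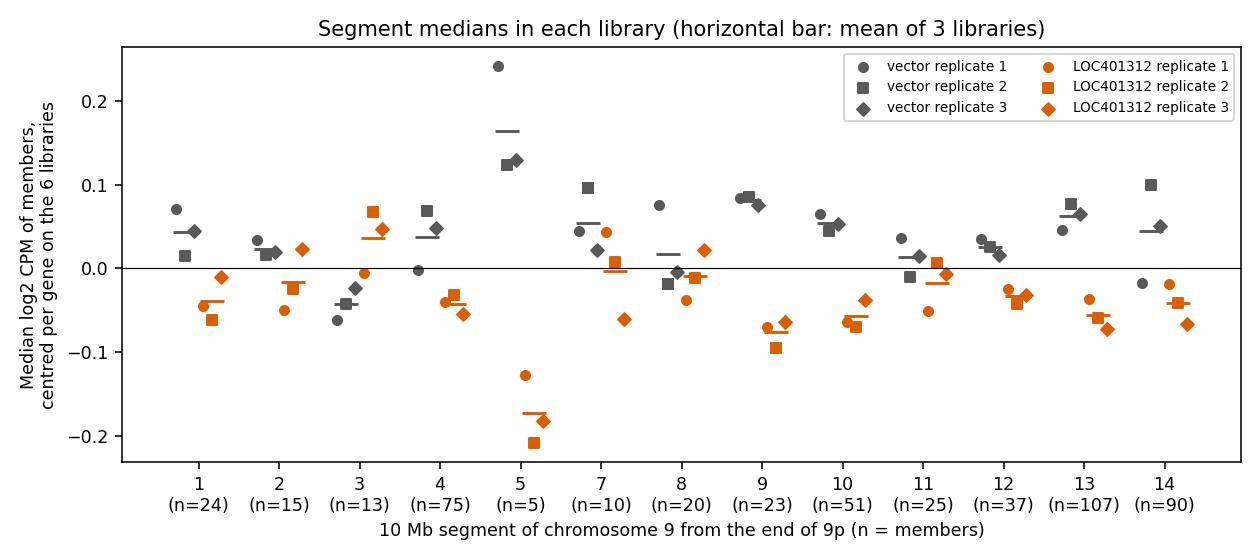
Median over the genes of each 10 Mb segment of chromosome 9 of log2 CPM centred per gene, for each of the 3 vector and 3 LOC401312 libraries, with the mean of each group as a bar. Vector libraries lie above LOC401312 libraries in most segments, overlap them in segments 2 (10 to 20 Mb), 7, 8 (60 to 80 Mb) and 11 (100 to 110 Mb), and lie below them in segment 3 (20 to 30 Mb).

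The segment from 20 to 30 Mb, which contains 9p21, went the other way. Its 13 genes had a median log2 change of 0.083, and 4 were negative. Its library medians were -0.062, -0.042 and -0.024 with vector and -0.0054, 0.067 and 0.047 with LOC401312, so that each LOC401312 library lay above each vector library. The median stayed positive in all 17 other settings of the count analysis, from 0.031 to 0.16. Relative to the 20 other chromosomes it was 0.079 on counts, 0.074 on log2(FPKM + 0.1) and -0.0035 on log2(FPKM + 1), so on the last scale the segment no longer stood above them. Both of its 5 Mb parts were positive, with 0.085 over 7 genes and 0.080 over 6. Among 248 segments of the 20 chromosomes other than 2, 9 and 12, 9 had a median of 0.083 or more, and their 95th percentile was 0.076. In the same 248 segments 1 median was at or below -0.087, that of chromosome 9 as a whole. The SD of segment medians was 0.083 on chromosome 9 and 0.039 over those 248 segments, which were held to the same minimum of 5 genes. The chromosome 9 value includes its 2 extremes, the 5 genes from 40 to 50 Mb (-0.28) and the segment from 20 to 30 Mb (0.083). An SD without these 2 was not taken, so a wider spread over the other segments is not shown.

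Along that segment, MLLT3, a subunit of the super elongation complex, had a log2 change of -0.05 (SE 0.08), and FOCAD, a stabiliser of the SKI complex, 0.09 (SE 0.05). HACD4, an enzyme of very long-chain fatty acid synthesis, and KLHL9, a ubiquitin ligase adaptor, had values of -0.09 and -0.05. MTAP, the methylthioadenosine phosphorylase of the methionine salvage pathway, had 534, 451 and 435 counts with vector and 528, 570 and 498 with LOC401312. Its groups overlapped, and its log2 change was 0.10 (SE 0.11, adjusted p = 0.675 by edgeR). MIR31HG, the long non-coding host gene of a microRNA, had 0.24 (adjusted p = 0.0945 by edgeR), and CDKN2B-AS1, the antisense RNA of the locus, 0.17. CDKN2B-AS1 overlaps CDKN2A and CDKN2B on the other strand, and the strand setting of the counting is not given. It had 369, 286 and 327 counts with vector and 458, 380 and 326 with LOC401312, where CDKN2A and CDKN2B had 0. TUSC1 had 0.25, CAAP1 -0.02, PLAA 0.08, IFT74 0.08 and C9orf72 0.03, none past the threshold. Of the 13 only MOB3B, an adaptor of the kinase-regulating MOB family at the 27 Mb end, rose. Of these 13 genes 0 fell by edgeR, 0 had a lower level at an unadjusted p under 0.05, and 0 fell by DESeq2.

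CDKN2A and CDKN2B, the cell cycle inhibitors between MTAP and DMRTA1, were below the count minimum and belong to no count above. CDKN2A had 47, 18 and 17 counts with vector and 0 in each LOC401312 library, and fell (adjusted p = 0.00717 by edgeR). CDKN2B had 19, 7 and 6 counts with vector and again 0 in each LOC401312 library, and was too low to be tested. Both are known to be deleted in A549 cells. Beside these counts, the haematopoietic markers summed to 4.19, 0.0669 and 0 CPM in vector replicates 1, 2 and 3, and the urothelial or squamous markers to 7.73, 7.51 and 8.54 CPM, against 1.39, 1.39 and 0.959 CPM with LOC401312. Within the urothelial or squamous list KRT13 and ADIRF fell, while KRT4 and UPK2 changed little. The part of other cells in these counts was not tested. MTAP and DMRTA1, on either side of them, had counts in every library, with 158, 119 and 153 counts of DMRTA1 with vector and 150, 183 and 188 with LOC401312. Both were low, at mean FPKM of 0.40 and 0.47 for MTAP and 0.32 and 0.40 for DMRTA1 with vector and LOC401312. Since DNA copy number was not analysed, these counts do not say how far the deletion reaches.

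**Figure D4:**
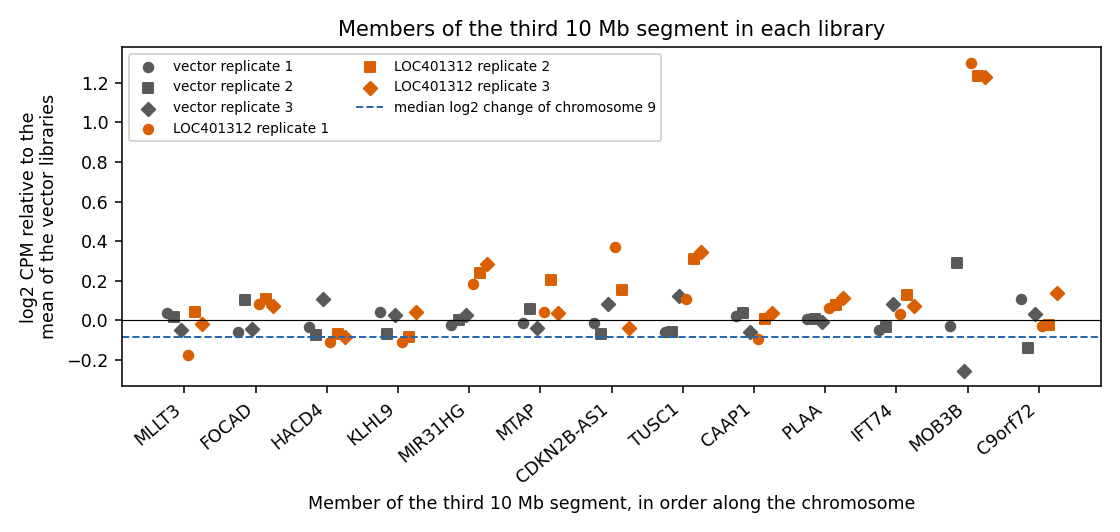
Log2 CPM, relative to the mean of the vector libraries, in the 6 libraries for the 13 genes of chromosome 9 that start between 20 and 30 Mb, in order of position, with the median log2 change of the chromosome dashed. The 3 LOC401312 libraries stand above the 3 vector libraries for MOB3B, while the groups overlap for MTAP, FOCAD and C9orf72.

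The shift was similar at all levels of expression. In the 165 genes with the lowest mean counts (251.667 to 1419.67) the median log2 change was -0.074 and 112 were negative. In the 165 in the middle it was -0.076 with 120 negative, and in the highest 165 -0.098 with 130 negative. The number that fell grew from 11 to 18 and 39 (6.67%, 10.9% and 23.6%), and the number that rose went from 3 to 1 and 6. Outside chromosomes 2, 9 and 12, shares were taken only for all genes of at least 250 counts together (4.13% fell and 5.44% rose). Shares at each level there were not taken, so the growth is not read as a larger fall of abundant genes.

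To find the genes that departed from their chromosome, the median of the 495 genes in each library was taken out of chromosome 9 and the test was run again on the whole table. With the shift removed, 33 genes lay below and 29 above it, and 433 did not pass. In this fit 4.38% of all entries were below and 4.23% above, and outside chromosomes 2, 9 and 12 at the same count level 4.1% and 5.42%. All 33 below had also fallen before the shift was removed, and 35 genes that had fallen were no longer called. All 10 genes that rose were among the 29 above, and the other 19 had not passed before, each with a positive log2 change. Leaving out each library in turn, 13 of the 33 and 11 of the 29 were called every time.

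**Figure D5:**
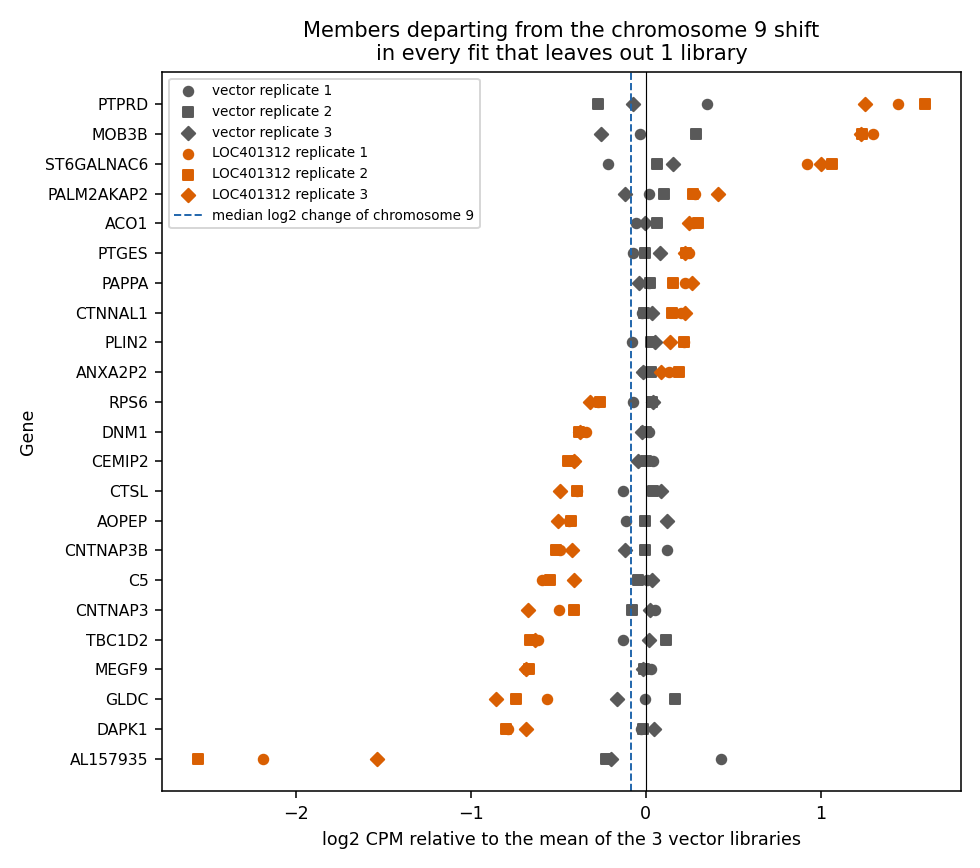
Log2 CPM, relative to the mean of the 3 vector libraries, of 23 of the 24 genes that stood apart from the chromosome's shift in every fit that left out 1 library, with that shift dashed. The 10 genes shown above it include PTPRD, MOB3B and ST6GALNAC6, and the 13 below include AL157935, DAPK1 and MEGF9.

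Departing genes lay in every segment and did not form one block. The stretch from 120 to 130 Mb held 12 of the 33 below and 5 of the 29 above, among 107 genes. Segments from 80 to 90 Mb had 4 below and 0 above, and segments from 100 to 110 Mb and 20 to 30 Mb had 0 below, with 5 and 3 above.

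MEGF9, a membrane protein with epidermal growth factor-like repeats on 9q (chr9:120600811-120714470, minus strand, ENSG00000106780), was the clearest of those below. It had 136, 132 and 131 CPM with vector and 82.7, 83.7 and 82.8 CPM with LOC401312, with no overlap and little spread. The log2 change was -0.68 (SE 0.04, adjusted p = 1.26e-05 by edgeR), and -0.59 (adjusted p = 3.2e-05) after the shift was removed. DAPK1, a calcium and calmodulin-dependent kinase that promotes cell death (chr9:87497228-87708634, plus strand, ENSG00000196730), had 63.2, 63.8 and 66.4 CPM with vector and 37.2, 36.9 and 40 CPM with LOC401312. Its log2 change was -0.76 (SE 0.05, adjusted p = 2.61e-05 by edgeR). This was the largest fall of a gene with no near-identical entry and no overlapping entry of at least 5% of its mean count. CTSL, the lysosomal protease cathepsin L, begins next to DAPK1 on the same strand. It had 947, 1068 and 1101 CPM with vector and 789, 788 and 737 CPM with LOC401312, and fell by 0.43 on the log2 scale (SE 0.06, adjusted p = 0.00123 by edgeR).

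GLDC, the decarboxylase of the glycine cleavage system at the end of 9p, fell from 20.1, 22.6 and 18.0 CPM with vector to 13.6, 12 and 11.1 CPM (log2 change -0.72, SE 0.11, adjusted p = 0.00304 by edgeR). TBC1D2, a Rab GTPase-activating protein, had 56.4, 67.0 and 62.6 CPM with vector and 40.4, 39.0 and 39.8 CPM with LOC401312, a log2 change of -0.64. CEMIP2, a cell surface protein of hyaluronan turnover, had 404, 393 and 381 CPM with vector and 295, 288 and 295 CPM with LOC401312, a log2 change of -0.42. C5, the complement component, had 32.1, 31.0 and 32.8 CPM with vector and 21.2, 21.9 and 24 CPM with LOC401312, a log2 change of -0.52. None of these 4 genes had overlapping groups. AOPEP, an aminopeptidase, and DNM1, the neuronal form of the vesicle-cutting GTPase dynamin, fell by 0.46 and 0.37 on the log2 scale. DNM1 shares sequence with CIZ1 on the other strand, and because the strand setting of the counting is not given, reads of the pair cannot be told apart. ASTN2 and LAMC3 had log2 changes of -0.64 and -0.69. Before the shift was removed, ASTN2 was not called without LOC401312 replicate 2 (adjusted p = 0.0523, edgeR). LAMC3 was then not called without vector replicate 3 or LOC401312 replicate 2 or 3 (adjusted p up to 0.0686, edgeR). After the shift was removed, the call of ASTN2 was lost without vector replicate 2 or 3 or LOC401312 replicate 2 or 3 (adjusted p up to 0.0841, edgeR). That of LAMC3 was lost without any 1 of the 6 libraries (adjusted p up to 0.111, edgeR).

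Among genes above the shift, PTPRD, a receptor-type tyrosine phosphatase of 9p (chr9:8314246-10033790, minus strand, ENSG00000153707), had the largest rise. It had 2.94, 1.91 and 2.19 CPM with vector and 6.27, 6.98 and 5.51 CPM with LOC401312, with a log2 change of 1.41 (SE 0.19, adjusted p = 0.00151 by edgeR). Its mean of 292.167 counts puts it near the count minimum, and the pseudogene RN7SL5P lies in it on the other strand. MOB3B (chr9:27325209-27529814, minus strand, ENSG00000120162) had 5.17, 6.46 and 4.42 CPM with vector and 13.0, 12.5 and 12.4 CPM with LOC401312, a rise of 1.24 on the log2 scale (SE 0.14, adjusted p = 0.000518 by edgeR). Both stood well apart from their own segments, whose medians were -0.068 and 0.083.

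ACO1, the cytosolic aconitase that doubles as an iron-regulatory protein (chr9:32384603-32450836, plus strand, ENSG00000122729), had 127, 138 and 131 CPM with vector and 159, 162 and 157 CPM with LOC401312. It rose by a log2 of 0.27 (SE 0.04, adjusted p = 0.00409 by edgeR), and stood 0.36 above the shift. PAPPA, a metalloproteinase that cleaves insulin-like growth factor binding proteins, had 468, 470 and 450 CPM with vector and 540, 516 and 556 CPM with LOC401312, a log2 change of 0.22 (adjusted p = 0.00839 by edgeR, 0.0514 without vector replicate 3). PTGES, the prostaglandin E synthase, had 157, 165 and 175 CPM with vector and 196, 194 and 193 CPM with LOC401312, a log2 change of 0.23 (adjusted p = 0.0108 by edgeR, 0.0547 without LOC401312 replicate 2). PLIN2, the coat protein of lipid droplets, and CTNNAL1, an alpha-catenin-like protein, both had log2 changes of 0.19 and passed the threshold. Before the shift was removed, the call of PLIN2 was lost without any 1 of the 6 libraries (adjusted p up to 0.17, edgeR). That of CTNNAL1 was then lost without any 1 other than vector replicate 1 (adjusted p up to 0.108, edgeR). PALM2AKAP2, an anchor of protein kinase A, had 0.32 and lost this call without vector replicate 3 or LOC401312 replicate 3 (adjusted p up to 0.0676, edgeR). After the shift was removed, PAPPA, PTGES, PLIN2, CTNNAL1 and PALM2AKAP2 were called above it in every fit that left out 1 library. TGFBR1, the type I receptor of transforming growth factor beta, had a log2 change of 0.17 that did not pass (adjusted p = 0.0702 by edgeR). It lay 0.26 above the shift (adjusted p = 0.0145 by edgeR), but was not among the 24 genes that departed in every fit leaving out 1 library.

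Some departures lay in entries that share reads. ST6GALNAC6, a sialyltransferase, had 9.21, 11.2 and 12 CPM with vector and 20.3, 22.5 and 21.4 CPM with LOC401312, a log2 change of 0.99. The readthrough entry AL157935, on the same strand and spanning ST6GALNAC6 and its neighbour AK1, had 23.4, 14.8 and 15.1 CPM with vector and 3.8, 2.95 and 5.99 CPM with LOC401312, a log2 change of -2.07. The 3 entries summed to 56.3 ± 1.27 CPM with vector and 57.1 ± 1.45 CPM with LOC401312 (SD, n = 3), a log2 ratio of 0.020. Their opposite changes were thus absent from the total. The readthrough DNAJC25-GNG10 had a log2 change of -0.53, and its component genes DNAJC25 and GNG10 had smaller log2 ratios of -0.05 and -0.11. Here the total was lower too: the 3 entries summed to 72.4 ± 0.126 CPM with vector and 64.0 ± 0.580 CPM with LOC401312 (SD, n = 3), a log2 ratio of -0.18. CNTNAP3, CNTNAP3B and CNTNAP3P2, near-identical copies around the centromere that encode or resemble a contactin-associated cell adhesion protein, all fell. Their sum was 131 ± 5.50 CPM with vector and 91.2 ± 2.58 CPM with LOC401312 (SD, n = 3), a log2 ratio of -0.52.

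The members were also grouped by function, in lists drawn up with earlier results of these data known. On counts all 10 lists had a negative median; on FPKM all but the ribosomal list were positive, and relative to the 20 other chromosomes all 10 were negative except lipid metabolism and transport on log2(FPKM + 1), at 0.0025. The list of ribosomal proteins, RNA processing and translation had 25 members, a median log2 change of -0.13, 8 that fell and none that rose by edgeR, at an unadjusted p under 0.05, or by DESeq2. RPS6, a protein of the small ribosomal subunit, had 1369, 1473 and 1478 CPM with vector and 1189, 1200 and 1155 CPM with LOC401312, and fell by 0.29 on the log2 scale (SE 0.04, adjusted p = 0.00149 by edgeR). RPL35 of the large subunit had 379, 459 and 454 CPM with vector and 358, 330 and 315 CPM with LOC401312, a log2 change of -0.37. It was not called without vector replicate 2 or 3 or LOC401312 replicate 2 or 3 (adjusted p up to 0.069, edgeR). RPL12 fell by 0.18 on the log2 scale, a call lost without the same libraries (adjusted p up to 0.122, edgeR), and RPL7A, the most abundant of the 4 by count, had -0.12 (adjusted p = 0.193 by edgeR).

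Most other groups had medians near the -0.087 of the chromosome, on either side of it. Of 8 enzymes of amino acid, urea cycle and haem metabolism, 2 fell, GLDC and PSAT1, the phosphoserine aminotransferase of serine synthesis, which had 228, 219 and 219 CPM with vector and 180, 189 and 184 CPM with LOC401312. The log2 change of PSAT1 was -0.27 (SE 0.04, adjusted p = 0.00243 by edgeR). ASS1, the argininosuccinate synthase of the urea cycle, had 38.5, 44.7 and 44.2 CPM with vector and 46.5, 42.9 and 43.8 CPM with LOC401312. Its groups overlapped, with a log2 change of 0.07 (SE 0.07, adjusted p = 0.637 by edgeR) and 0.15 after the shift was removed (adjusted p = 0.182). Of 24 mitochondrial proteins 5 fell (median -0.11), and of 24 genes of DNA repair and replication 2 fell (median -0.084), the mitotic kinase MELK (log2 change -0.30) and CKS2 (-0.31), a partner of cyclin-dependent kinases. Of 27 genes of protein folding, ubiquitin and the proteasome 3 fell (median -0.074), with the proteasome assembly chaperone PSMD5 at -0.25. Of 24 genes of membrane traffic 4 fell (median -0.075), and of 29 transcription and chromatin regulators 4 fell (median -0.060). By edgeR none of the genes of these 5 lists or of the amino acid list rose, by DESeq2 none did either, and at an unadjusted p under 0.05 between 0 and 2 per list were higher.

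The signalling list of 24 had 3 that fell, DAPK1, SHB and STRBP, and 1 that rose, PTPRD, with a median of -0.099. STRBP was not called without vector replicate 2 or 3 or LOC401312 replicate 1 or 2 (adjusted p up to 0.108, edgeR). SHB, an adaptor of tyrosine kinase receptors, had 58.3, 68.4 and 63.5 CPM with vector and 50.7, 49.0 and 47.6 CPM with LOC401312. Of 20 genes of cytoskeleton, matrix and adhesion 3 fell and 2 rose (median -0.080), and the actin-severing protein GSN had a log2 change of -0.29. The list least like the chromosome was that of lipid metabolism and transport, with a median of -0.0080 over 23 genes, 12 of them negative, 4 that fell and 2 that rose. With scaling on total counts alone its median was 0.016. Over all genes tested the median was -0.00066.

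Abundant genes were found on both sides of the shift. RPS6 and CTSL, described above, had log2 changes of -0.20 and -0.34 after its removal (adjusted p = 0.00779 and 0.00328 by edgeR). ALDH1A1, a retinaldehyde dehydrogenase with the highest mean count (284359), had 4333, 4514 and 4451 CPM with vector and 4067, 4113 and 4093 CPM with LOC401312. Its log2 change of -0.12 (SE 0.03, adjusted p = 0.0298 by edgeR) was -0.03 after the shift was removed (adjusted p = 0.632), and the call was lost without any 1 library other than vector replicate 1 (adjusted p up to 0.109). HSPA5, the chaperone of the endoplasmic reticulum, had 957, 944 and 923 CPM with vector and 883, 904 and 897 CPM with LOC401312, a log2 change of -0.07 (adjusted p = 0.202 by edgeR). VCP, an ATPase of protein quality control, had 706, 752 and 746 CPM with vector and 781, 774 and 729 CPM with LOC401312. It overlapped between groups, with a log2 change of 0.05, and lay 0.14 above the shift (adjusted p = 0.0464 by edgeR), a call lost without any 1 library other than LOC401312 replicate 3 (adjusted p up to 0.167).

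RefSeq promoter windows were matched for 408 of the 495 genes. The GC box GGGCGG, on either strand, was present in 75% of them, in 44.6% of all 27305 promoters in the table, in 61.5% of the 26 matched genes above the shift and in 73.1% of the 26 below. The TATA box TATAAA, on either strand, was found in 12% of all promoters and 4.9% of the matched genes of chromosome 9. It was in 5 of 26 genes above the shift (19.2%), 0 of 26 below and 4.21% of those not departing. The median number of CpG per window was 14 over all promoters, 29 over the 408 matched genes, 25.5 above the shift and 31.5 below. The matched genes had passed the minimum of 250 counts, whereas the full set of promoters was not filtered by expression. Promoters of other chromosomes at that count level were not counted separately. Differences from all promoters are thus not read as a trait of chromosome 9. The CCAAT box (CCAAT), the cyclic AMP response element TGACGTCA and the AP-1 site TGANTCA were also searched on both strands, as were the E-box CACGTG and the core of the antioxidant response element, TGACNNNGC. Matches that overlapped each other were each counted. The MOB3B window held none of the 7, which says only that these letters are not in those 300 bases.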

How the data were processed

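RNA-seq libraries of A549 cells, 3 per group, were grouped by title. The authors deposited one table of 38170 entries with raw counts, which are whole numbers with no normalization, per the file headers. The same table holds FPKM, which the authors scaled for length and depth, per the file headers. Per the submitters' processing notes, cutadapt 1.9 and FastQC were used, with build GRCh38 (hg38). For the aligner, counting tool, annotation and strandedness, names were not given in the sources used here.

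Counts were tested with edgeR 4.0.16 (R 4.3.3), using the quasi-likelihood test with TMM, filterByExpr, group as the only term and Benjamini-Hochberg adjustment over 19620 entries. The biological coefficient of variation was 17.0%, and totals of 60971105 to 73994619 counts set the counting error. CPM use TMM-adjusted totals, and SE is the log2 change's size over the root of F. To remove the chromosome's shift, the median over the 495 genes of log2 CPM centred per gene was added, library by library, to the offset of every chromosome 9 entry. Arms were split at 43 Mb of the deposited start column. Both fits were also run on simulated counts that varied less between libraries than these data, so that run does not measure their error here.

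The members, lists and tests were chosen with earlier results of these data known. Genes were named by rule: the 10 highest and 10 lowest departing genes without overlap, the 3 smallest p-values of each list, the most abundant gene of each segment, ASS1, the 9p21 genes and the smallest p of each arm. Other named genes, such as C5, DNM1, AOPEP, CEMIP2, PLIN2 and TGFBR1, were chosen after their values were seen. Of the genes the rule gives, those not printed are counted in their lists or segments. Alternatives were DESeq2 1.42.0, other scalings and filters, a block for the replicate number, leaving out each library, LOC401312 replicates 2 and 3 left out, limma 3.58.1 on log2(FPKM + 0.1) and log2(FPKM + 1), other count minimums, and other cuts of the chromosome.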

Additional observations from a re-analysis of the deposited data

How the results depend on the processing

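The chromosome's median relative to the 20 other chromosomes was negative in every setting, with a main value of -0.090 and -0.073 on log2(FPKM + 1). Its own median was -0.062 on total counts (9p -0.049, 9q -0.067), 0.039 on log2(FPKM + 0.1) (9p 0.055, 9q 0.033) and 0.030 on log2(FPKM + 1) (9p 0.042, 9q 0.027). On those 2 FPKM scales the median of the 20 other chromosomes was 0.13 and 0.10. The 9p median ranged from -0.083 to -0.057 with 1 library left out. It was -0.054 as a mean, -0.055 without 38 to 68 Mb and, added after the data were seen, -0.088 without 20 to 30 Mb. Without LOC401312 replicates 2 and 3 it was -0.089, with 9q at -0.080.

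Counts of calls moved most. Against 68 lower, DESeq2 gave 103, no low count filter 43, the FPKM scales 20 and 19, and leaving out 1 library 31 (without LOC401312 replicate 2) to 81 (without vector replicate 1). Against 10 higher, the FPKM scales gave 26 and 22 and leaving out 1 library 5 to 12. Against 29 above the shift, no filter gave 17 and leaving out 1 library 12 to 29, and against 33 below, 15 to 39. Without LOC401312 replicates 2 and 3 there were 4 lower, 0 higher, 2 above and 3 below. With the replicate number as a block there were 44 lower, 6 higher, 12 above and 20 below. The numbers did not pair the libraries (correlations of same-numbered deviations -0.12, 0.13 and -0.041), so this is given here only. The cause of these moves was not tested, beyond the smaller number of libraries.

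Segments with a negative median numbered 12 of 13, 1 on either FPKM scale, 20 of 22 at 5 Mb and 7 of 7 at 20 Mb. On total counts 60 to 70 Mb gave 0.0032 and 100 to 110 Mb 0.016. The latter was 0.00092 with no filter, 0.015 as a mean, and -0.032 (without vector replicate 2) to 0.0096 (without LOC401312 replicate 1) with 1 library left out. On log2(FPKM + 0.1), in order along the chromosome and leaving out 20 to 30 and 40 to 50 Mb, the segment medians were 0.059, 0.029, 0.044, 0.097, 0.073, 0.0022, 0.033, 0.12, 0.071, 0.0046 and 0.038. On log2(FPKM + 1) they were 0.033, 0.019, 0.030, 0.068, 0.066, 0.0019, 0.027, 0.097, 0.032, 0.0043 and 0.033. ALDH1A1 had 0.011 on both FPKM scales. Of 2520 values of named genes over 20 settings, 2151 stayed on their side of the threshold, 341 lost a call, 26 gained one and 2 called values changed sign (ALDH1A1, above). In all 36 values of 16 results changed sign, the other results being uncalled in the main analysis.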
